A study of Drosophila melanogaster with 2 samples.

Results

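The genes described here are 10 heat shock and chaperone genes of Drosophila melanogaster: Hsp83, Hsp27, Hsp26, Hsp23, Hsp22, Hsp67Ba, Hsp67Bc, Hsp68, DnaJ-1 and Hsf. They were chosen by name, with earlier results of these data known. All 10 symbols were found among the 18164 annotated genes of the chromosome arms, of which 13945 are protein-coding. Of the 10, Hsf is a transcription factor of the heat shock response and the other genes encode chaperones. The question was where the protein of the gene CG14965 was recovered at these genes.

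The study used ChIP-seq with an antibody to GFP, in a stable transgenic fly line that makes CG14965 protein with eGFP at its C terminus. Its single group was whole embryos of both sexes, 0 to 24 h old, with chromatin sonicated to 200 to 800 bp. It was sampled as 2 biological replicates, numbered 3 and 4, from separate biosamples of the same line. Both replicates carry the tagged gene, no untagged line or other condition was analysed here, and the labels name no heat shock. The values are therefore positions and signal values of recovered regions in 1 state. Whole embryos mix all cell types, and peak lists hold no marker by which the tissue could be checked. A weak region can be weak binding in many cells or strong binding in few, and these cannot be told apart.

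Each replicate had a list of 30000 candidate regions, and so did the pooled data. The optimal list held the 1302 regions that passed the authors' replicate-based threshold (irreproducible discovery rate, IDR), and these were the 1302 pooled regions of highest signal value. The signal value is a score of unstated scale that ran to 8276 in the pooled list, 5133 in replicate 3 and 3188 in replicate 4, and lists are therefore compared by rank, where 1 is the highest. Read depth is unknown because the files give no read numbers. Most regions share a fixed width (436 bp for 99.3% of the pooled list and 84.8% of the optimal list), so width was not used. The Hsp83 promoter peak is an exception, with 239 bp in the pooled list and 267 bp in replicate 3. With 1 group and 2 replicates there was no test to make, and each count below stands beside its share over all protein-coding genes.

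Heat shock proteins bind unfolded or partly folded proteins. The Hsp90 and Hsp70 families use ATP, Hsp40 proteins such as DnaJ-1 deliver clients to Hsp70, and the small heat shock proteins hold clients without ATP. Heat shock factor (Hsf) binds heat shock elements, arrays of the unit GAA and its complement TTC in alternating orientation. At the uninduced heat shock promoters of the fly, GAGA factor bound to GAGAG repeats and a paused RNA polymerase II are textbook features.

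The promoter sequences that the results turn on are given 5′ to 3′ on the gene's own strand, from the RefSeq copy of the Release 6 genome (dm6). The first pair comes from Hsp83, whose CG14965-eGFP summit lies in a leader exon. The upper sequence is 30 bases at the summit, chr3L:3193089-3193118 on the plus strand. The lower is 30 bases around the only exact heat shock element match in its promoter windows, chr3L:3193137-3193166, with the matched letters in capitals.
Hsp83 summit: aacactgatctaccctagtattcacaggaa
Hsp83 heat shock element: agaagcctctaGAAGTTTCtagagacttcc
For Hsp27, 201 bases centred on the summit are shown, chr3L:9383825-9384025 on the plus strand, with the word AGATGGC in capitals. That word was chosen after its occurrence here was seen.
Hsp27 summit: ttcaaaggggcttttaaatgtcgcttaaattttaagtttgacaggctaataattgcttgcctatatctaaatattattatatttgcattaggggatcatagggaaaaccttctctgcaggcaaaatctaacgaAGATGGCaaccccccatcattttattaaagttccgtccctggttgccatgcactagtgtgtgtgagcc
For Hsp26, 201 bases centred on the summit are shown, chr3L:9377430-9377630 on the minus strand. Capitals mark a heat shock element and the GAGA words, which read CTCTC on this strand.
Hsp26 summit: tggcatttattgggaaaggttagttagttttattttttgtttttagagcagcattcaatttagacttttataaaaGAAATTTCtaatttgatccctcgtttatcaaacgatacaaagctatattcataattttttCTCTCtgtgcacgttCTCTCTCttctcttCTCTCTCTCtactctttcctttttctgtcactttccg
Hsp68 is shown as the contrast, a promoter dense in heat shock elements (capitals) and without a pooled region at its TSS: the 250 bases before its TSS, chr3R:24057311-24057560 on the minus strand.
Hsp68 promoter: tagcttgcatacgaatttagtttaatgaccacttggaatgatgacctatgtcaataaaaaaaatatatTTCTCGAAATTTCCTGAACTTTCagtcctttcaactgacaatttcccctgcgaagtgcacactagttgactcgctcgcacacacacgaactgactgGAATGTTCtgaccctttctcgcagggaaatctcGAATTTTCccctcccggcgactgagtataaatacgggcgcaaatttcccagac

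An optimal peak summit lay within 500 bp of a transcription start site (TSS) at 2 of the 10 genes, Hsp83 and Hsp27, that is 20%. Over all protein-coding genes the share was 4.9% (684 of 13945). Because the 10 genes were chosen with earlier results of these data known, these shares describe the list and are no test of it. The same 2 genes were found among the 1302 highest regions of each replicate taken alone, where the shares over all protein-coding genes were 5.15% in replicate 3 and 4.39% in replicate 4. With the gene body and 2 kb on each side as the window, 3 of the 10 held an optimal summit, against 11.5% of protein-coding genes, and against 7.7% of the 10020 protein-coding genes no longer than the longest of the 10 (Hsf, 4332 bp). The third gene was Hsp23, and its summit was the Hsp27 promoter peak itself, so 2 distinct optimal peaks account for all 3 genes. Among the 1302 highest regions of each replicate the same 3 genes were counted, against 11.6% of protein-coding genes in replicate 3 and 11.8% in replicate 4.

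In the full pooled list, 7 of the 10 genes had a region summit within 500 bp of a TSS, against 42.5% of protein-coding genes, and all 10 had one in the wider window, against 82.2% (76.9% of the 10020 shorter genes). The replicates differed in the promoter count: replicate 3 had such a region at 8 of the 10 genes, against 47.4% of protein-coding genes, and replicate 4 at 4 of the 10, against 34.3%. The 4 genes of replicate 4, Hsp83, Hsp27, Hsp26 and Hsf, were all among the 8 of replicate 3. The wider window was filled at all 10 genes in both replicates, against 80.3% in replicate 3 and 83.2% in replicate 4. Counting each region once, the 10 genes had 23 pooled regions with a median rank of 15259, near the middle of the list, and 6 of the 23 served more than 1 of the genes.

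**Figure D1:**
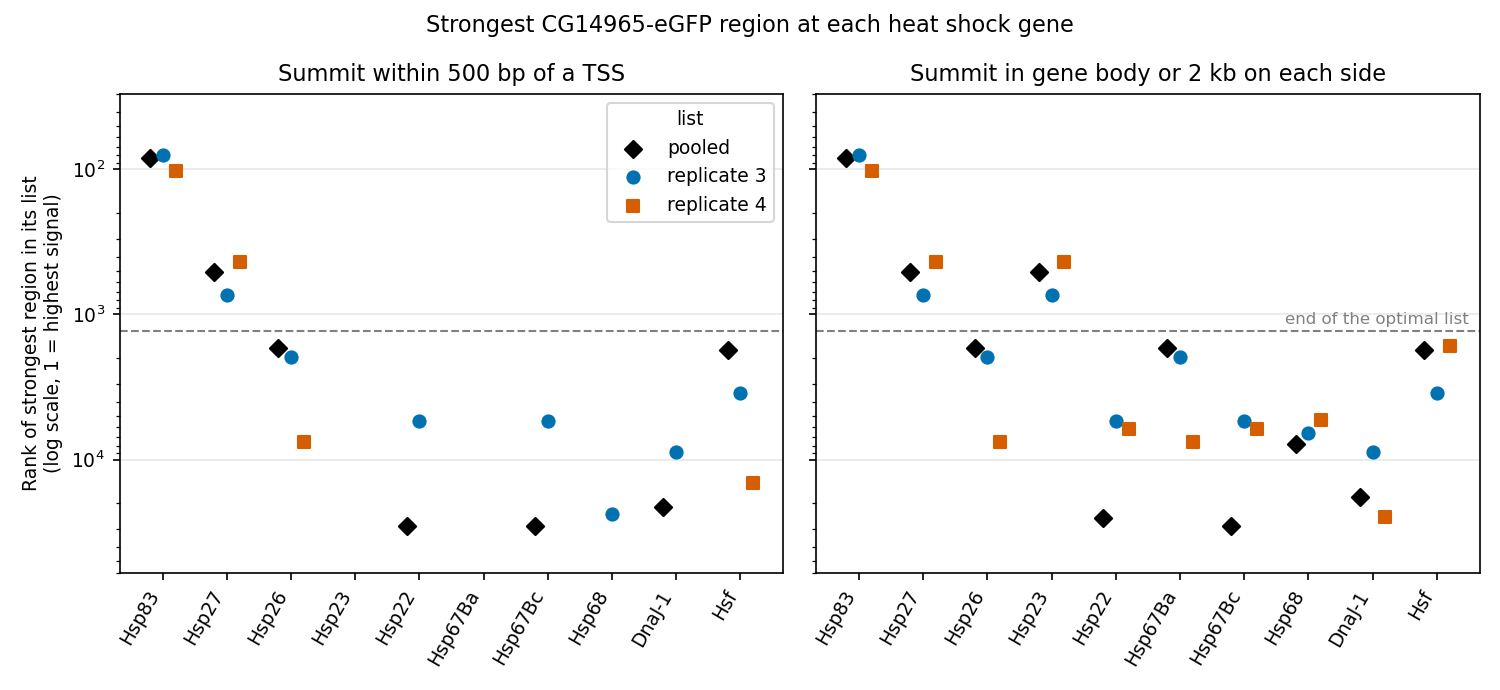
Rank of the strongest region at each of the 10 genes (log scale, 1 at the top) in the pooled list (diamonds), replicate 3 (circles) and replicate 4 (squares), with summits within 500 bp of a TSS on the left and in the gene body with 2 kb on each side on the right; a missing symbol means no region. Hsp83 lies near rank 100 in all lists and Hsp27 above the end of the optimal list (dashed, rank 1302), while Hsp23 takes the Hsp27 region, and Hsp67Ba the Hsp26 region, in the right panel.

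Hsp83 (FBgn0001233, chr3L:3192969-3197059, plus strand, 4091 bp) encodes the cytosolic Hsp90 of the fly, an abundant chaperone of kinases, receptors and other signalling proteins that is also made without heat. It had the region of highest signal value among the 10 genes, in the pooled list and in both replicates. The promoter peak had a signal value of 374 in the pooled list (rank 84), 222 in replicate 3 (rank 80) and 144 in replicate 4 (rank 102). Its deposited −log10 q of 3.37 is a ceiling shared by 1175 pooled regions, the Hsp27 promoter peak among them, so it does not rank Hsp83. Among the 519 optimal peaks that lay within 500 bp of a TSS of a protein-coding gene it was the 25th, and 28 protein-coding genes had a stronger promoter peak.

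The 3 lists placed the Hsp83 summit at nearly the same base. The pooled summit was at chr3L:3193103, the replicate 4 summit was 0 bp away and the replicate 3 summit 1 bp away. Hsp83 has 2 annotated TSSs, 247 bp apart, and the summit fell between them, 134 bp inside the transcript from the upstream TSS and 113 bp upstream of the downstream one. The base is annotated as 5′ UTR of the longer transcript. The heat shock element match shown above is centred 64 bp upstream of the downstream TSS, between the summit and that TSS. A TATAAA box is centred 27 bp upstream of the same TSS. The matched letters run from 45 to 52 bp away from the summit. In the printed bases a further GAA lies on the summit side of the match and a further TTC on the other side. The extent given is thus that of the search word.

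Elsewhere at Hsp83 the pooled regions were weak. Besides the promoter peak, the pooled list held 6 regions in the gene and its flanks, with signal values of 22.2 to 31.9 and ranks of 8588 to 22642. Of these, 3 lay in coding sequence, 2 downstream of the gene and 1 upstream, inside CG14965. Each of the 6 was overlapped by a region of 1 replicate only. Replicate 3 had a region in the Hsp83 intron (23.8, rank 4564) with no counterpart in the other lists, and replicate 4 had one in the 3′ UTR (24.9, rank 3303). The signal at this gene was thus focused on 1 stretch between the start sites, as the map of Hsp83 shows.

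**Figure D2:**
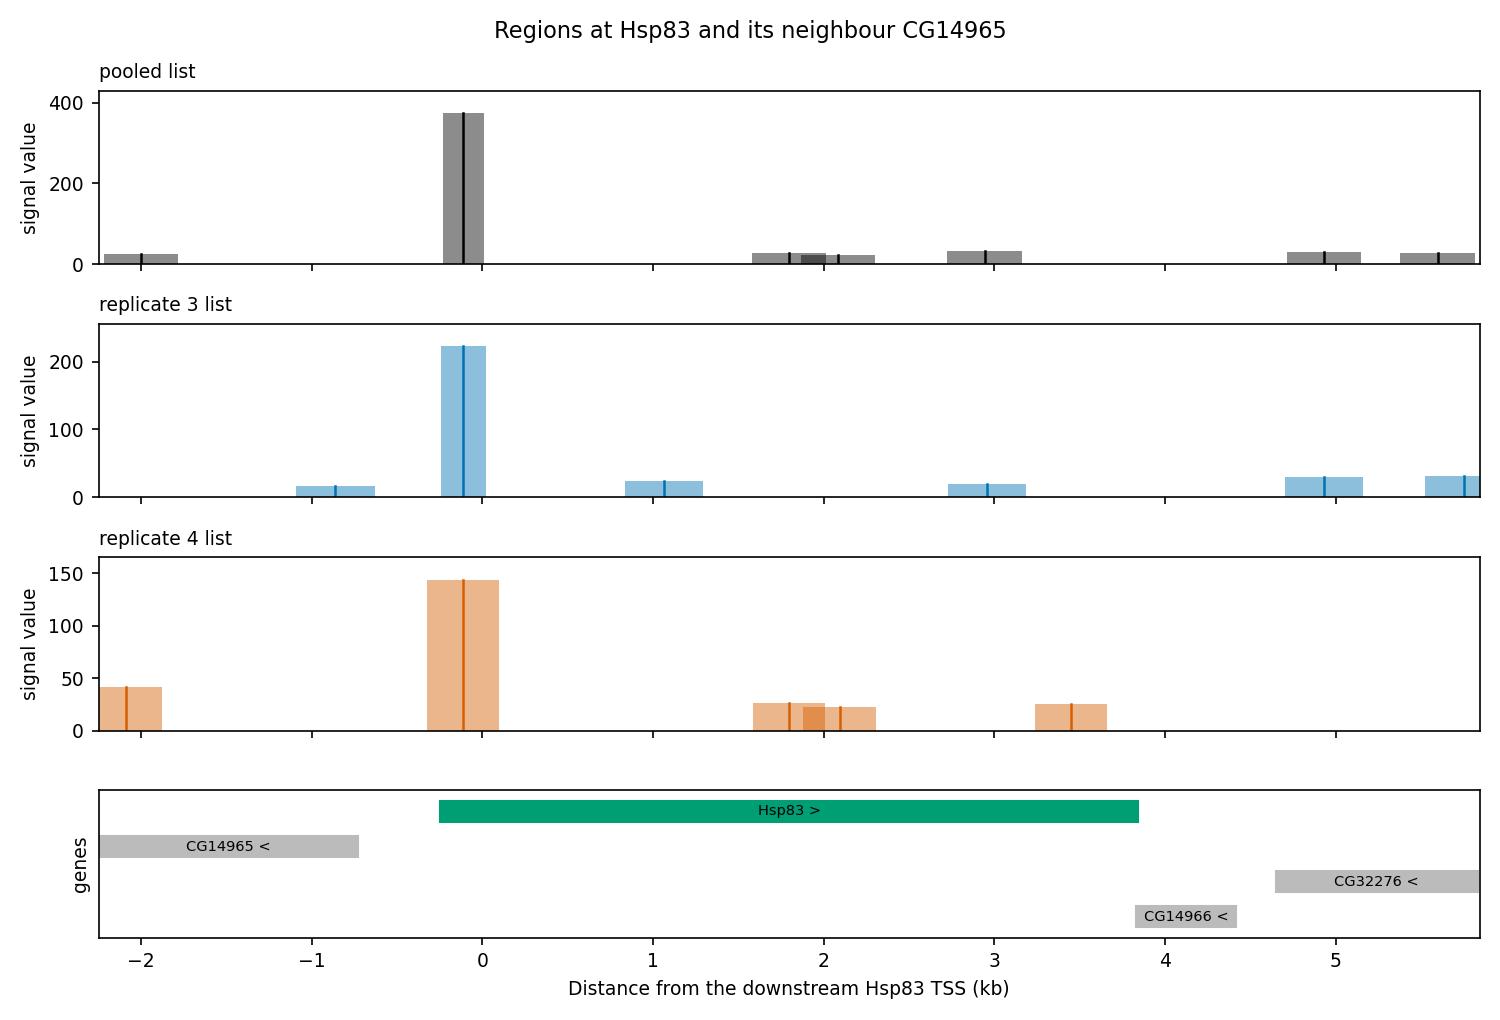
Regions at Hsp83 and 2 kb on each side in the pooled list and in replicates 3 and 4; each bar spans a region, its height is the signal value (separate linear scale per list) and the vertical line is the summit, over distance in kb from the downstream Hsp83 TSS. The genes are drawn below (Hsp83 in green, > plus strand, < minus strand): the promoter peak stands at 374, 222 and 144, and all other bars stay at or below 41.3.

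The tagged gene is the neighbour of Hsp83. CG14965 (FBgn0035414, chr3L:3190622-3192491, minus strand) starts 478 bp from the upstream Hsp83 TSS and is transcribed away from it, so the pair is head to head. The Hsp83 summit was 612 bp from the CG14965 TSS, outside its 500 bp window. In its own coding sequence CG14965 had a pooled region of 23.8 (rank 19252). Replicate 4 had one of 41.3 there (rank 732), and replicate 3 a different one of 16.3 (rank 11555), 135 bp from the TSS. The signal at Hsp83 was thus higher than at CG14965 in all 3 lists.

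Candidate regions were dense around the 2 genes. Within 20 kb of CG14965 on each side there were 5.49 pooled summits per 10 kb, against 2.24 over the chromosome arms, and 0.717 optimal summits per 10 kb, against 0.0973. Each replicate alone gave 4.3 (replicate 3) and 5.02 (replicate 4) per 10 kb, against 2.24 for both over the arms. Of 3195 tiles of the same length along the arms, 98 (3.07%) held at least as many pooled summits and 82 (2.57%) at least as many optimal ones. The same held for 465 tiles (14.6%) in replicate 3 and 70 tiles (2.19%) in replicate 4. The optimal density rests on 3 summits, the Hsp83 peak among them, against a median of 0 per tile. As the window lies beside that known peak, it could not be without an optimal summit. The labels call the line an insertion targeting CG14965 but do not say how much neighbouring sequence the insertion holds, and the part of an added copy in the density or in the Hsp83 value was not tested.

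In pooled rank the promoter peaks next above Hsp83 were those of mRpS10 (signal value 438, rank 74), a mitochondrial ribosomal protein, PNPase (432, rank 76), a mitochondrial RNA-degrading enzyme, and gish (417, rank 78), a casein kinase. Next below came CenG1A (371, rank 85), a regulator of Arf GTPases, larp (362, rank 88), a La-related RNA-binding protein, and Pal1 (337, rank 93), an enzyme of peptide amidation. In replicate 4 its 144 lay below the 164 of CenG1A, and in replicate 3 its 222 lay above the 206 of that gene, so neighbours in this order are not separated beyond the replicate spread. The likeness is in pooled rank alone, over 2 replicates. Each peak is named by the gene of the nearest TSS. Those of mRpS10, CenG1A and Pal1 also lay within 500 bp of a TSS of Art3, mRpS23 and Pdrg1, in that order.

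Hsp27, Hsp26, Hsp23, Hsp22, Hsp67Ba and Hsp67Bc, all small heat shock genes, lie together in the 67B cluster, which spans 14184 bp at chr3L:9371511-9385694. The cluster held 4.23 pooled summits per 10 kb, against 2.24 over the arms. Most of its regions were low, and neighbouring genes shared them, since the windows of genes this close overlap. The replicates also differed here, with 6.35 summits per 10 kb in replicate 3 and 3.53 in replicate 4.

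Hsp27 (FBgn0001226, chr3L:9384063-9385694, plus strand) encodes a small heat shock protein of the nucleus. Its promoter peak had a signal value of 116 in the pooled list (rank 511), 57.8 in replicate 3 (rank 738) and 55.3 in replicate 4 (rank 433). It ranked 215th of the 519 promoter peaks, and 274 protein-coding genes had a stronger one. The ranks of both replicates stayed above the 1302nd. The pooled summit was 138 bp upstream of the TSS, and the summits of the replicates were 159 bp (replicate 3) and 158 bp (replicate 4) upstream, so they differed from each other by 1 bp and from the pooled one by about 20 bp. The word AGATGGC lies 36 bp from the pooled summit, but more than 50 bp from the summit of either replicate. A TATAAA box lies 25 bp upstream of the TSS. Within the gene, the coding sequence held a weak pooled region (21.9, rank 23447) that replicate 4 also had (17.9, rank 11166) and replicate 3 did not.

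Hsp26 (FBgn0001225, chr3L:9376418-9377427, minus strand) encodes a cytosolic small heat shock protein whose promoter is a classical model of Hsf and GAGA factor binding. Its promoter region had a signal value of 59.9 in the pooled list (rank 1695), outside the optimal list. It had 34.3 in replicate 3 (rank 1976) and 20.1 in replicate 4 (rank 7549), and replicate 3 ranked it far higher. The summits lay close together, 103 bp upstream of the TSS in the pooled list, 88 bp in replicate 3 and 104 bp in replicate 4. Within 50 bp of the pooled summit lay a heat shock element, 22 bp away, and a GAGAG word, 37 bp away. The threshold itself fell between a lowest optimal peak of 69.8 and a next pooled region of 69.7.

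Hsp67Ba (FBgn0001227, chr3L:9377802-9379534, minus strand), a gene of the same family, had no region within 500 bp of its TSS in any list. The strongest region in its wider window was the Hsp26 promoter region, 272 bp beyond its 3′ end. It had 1 further pooled region, in its own coding sequence, of 36.8 (rank 5657). Replicate 4 had 17.2 (rank 12744) there, with its summit 32 bp from the pooled one. Replicate 3 had 19.3 (rank 7614) with a summit 205 bp away, and a nearer region of only 11.4 (rank 24648). The antisense RNA gene asRNA:CR43481 has the nearest TSS.

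Hsp23 (FBgn0001224, chr3L:9381882-9382765, plus strand), which encodes a cytosolic small heat shock protein, likewise had no region within 500 bp of its TSS in any list. The Hsp27 peak lies 2043 bp from that TSS and 1160 bp beyond the end of Hsp23, and it is the sole reason why Hsp23 counts among genes with an optimal summit in the wider window. Hsp23 and Hsp27 are separate in the promoter window and joined in the wider one.

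Hsp22 (FBgn0001223, chr3L:9372931-9374964, plus strand), a mitochondrial small heat shock protein, and Hsp67Bc (FBgn0001229, chr3L:9371511-9372497, minus strand), a small heat shock protein linked to autophagy, face away from each other and shared a region. It had 19.8 in the pooled list (rank 28904), close to the end, and 22.3 in replicate 3 (rank 5386), and replicate 4 had none within 500 bp of either TSS. The pooled summit was 74 bp from the upstream Hsp22 TSS and 360 bp from the Hsp67Bc TSS. CG4456, known by the older name Hsp67Bb, starts as near to that summit as Hsp22 does. Replicate 4 had a region of 21.1 (rank 6195) 514 bp inside Hsp22. Hsp22 has its other annotated TSS 1066 bp downstream, and the pooled region in its coding sequence had 21.1 (rank 25289).

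**Figure D3:**
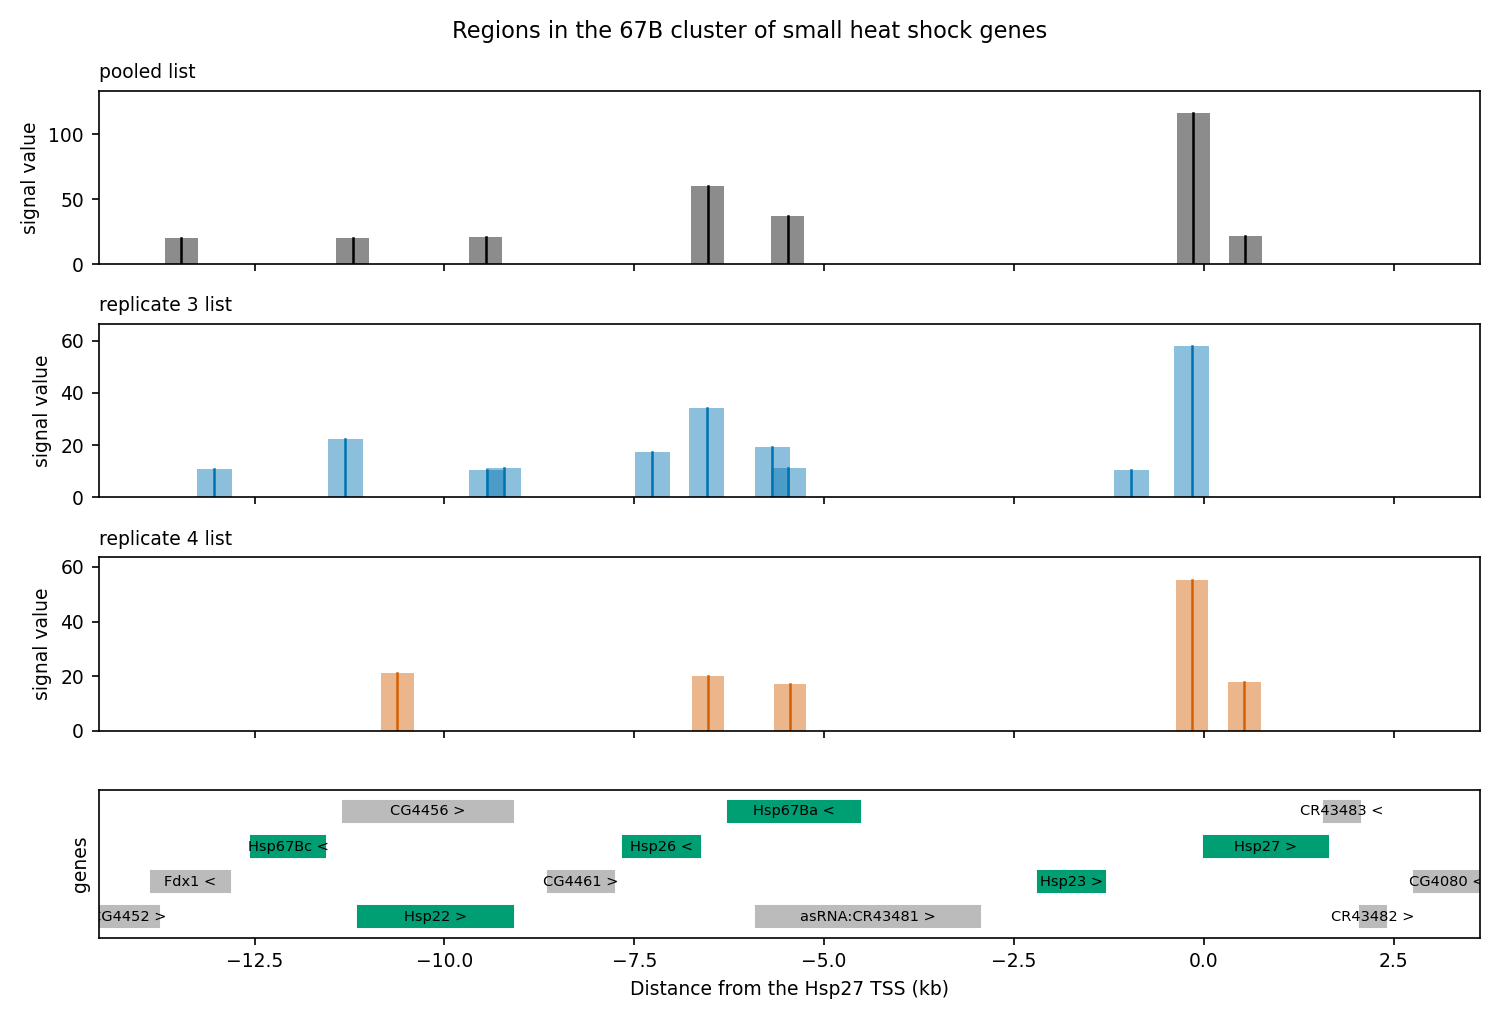
Regions across the 67B cluster with 2 kb on each side in the pooled list and in replicates 3 and 4; bars, heights and vertical lines are as in the map of Hsp83, over distance in kb from the Hsp27 TSS, with the genes below (the 6 small heat shock genes described in the text in green). The Hsp27 promoter bar is the highest in each list (116, 57.8 and 55.3), the Hsp26 bar follows in the pooled list and replicate 3 (59.9 and 34.3), and no bar stands at the Hsp23 or Hsp67Ba start.

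Hsp68 (FBgn0001230, chr3R:24055080-24057310, minus strand) encodes a heat-inducible member of the Hsp70 family. It had no pooled region and no replicate 4 region within 500 bp of its TSS, and replicate 3 had 1 of 11.7 (rank 23525), 408 bp inside the gene in coding sequence. The strongest pooled region of its wider window had 33.0 (rank 7779), 1825 bp from the TSS in coding sequence, and replicate 4 had 22.0 (rank 5325) 85 bp from that summit. Replicate 3 had nothing there, and its strongest region had 20.6 (rank 6567), downstream of the gene. No position at Hsp68 was strong in both replicates.

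DnaJ-1 (FBgn0263106, chr3L:5750029-5752189, minus strand) encodes an Hsp40 co-chaperone that stimulates the ATPase of Hsp70. Its promoter region had 22.8 in the pooled list (rank 21243) and 18.3 in replicate 3 (rank 8830), and replicate 4 had none in the promoter window. The summits were 180 bp inside the gene in the pooled list and 44 bp upstream of the TSS in replicate 3, so they disagreed by 224 bp. The strongest region in the wider window of DnaJ-1 was in coding sequence, with 24.2 in the pooled list (rank 18231). Replicate 4 had only 1 region at this gene, of 13.5 (rank 24910).

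Hsf (FBgn0001222, chr2R:18130303-18134634, minus strand) encodes the trimeric activator of the heat shock genes. Its strongest pooled region had 58.9 (rank 1759) and lay in an intron, 479 bp inside the gene. Replicate 3 had 26.6 (rank 3484), 373 bp inside. Replicate 4 had 2 regions there, of 30.2 (rank 1660) at 548 bp, outside the promoter window, and of 16.5 (rank 14462) at 346 bp. The summits of the 2 replicates' strongest regions lay 106 bp (replicate 3) and 69 bp (replicate 4) to opposite sides of the pooled one, far wider than at Hsp83, Hsp27 or Hsp26. A further region lay 1273 bp upstream of Hsf, with 43.6 in the pooled list (rank 3526), 17.9 in replicate 3 (rank 9219) and 27.2 in replicate 4 (rank 2362), and its nearest TSS was that of Pcl, a Polycomb group gene.

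By promoter signal in the pooled list the order of the genes was Hsp83, Hsp27, Hsp26, Hsf, DnaJ-1 and then Hsp22 with Hsp67Bc. Hsp83 ranked above Hsp27, Hsp27 above Hsp26, and Hsp26 above Hsf, in the pooled list and in both replicates. In the promoter window Hsp26 and Hsf lay close in the pooled list (ranks 1695 and 1759), and further apart in replicate 3 (1976 and 3484) and in replicate 4 (7549 and 14462). In the wider window replicate 4 ranked Hsf above Hsp26 (1660 and 7549), through the region 548 bp inside Hsf, so the order of this pair depends on the window. Replicate 4 had no promoter region at any of the other genes. Replicate 3 reversed their pooled order, with Hsp22 and Hsp67Bc (22.3, rank 5386) above DnaJ-1 (18.3, rank 8830). Neither replicate thus repeats the pooled order of these genes.

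Of the 23 pooled regions at the 10 genes, a region of replicate 3 overlapped 18 (78.3%) by at least 1 bp, against 66.3% of all 30000 pooled regions. A region of replicate 4 overlapped 13 (56.5%), against 69.2%. Both did so for 8 (34.8%), against 12488 (41.6%). None of the 23 lacked a replicate altogether, against 1834 of 30000. The 8 regions with both replicates were the promoter peaks of Hsp83 and Hsp27, the Hsp26 promoter region, 3 regions at Hsf, the Hsp67Ba coding region and 1 downstream of Hsp68. The replicate ranks lay closest at Hsp83 (80 and 102) and further apart at the Hsp26 promoter region (1976 and 7549).

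**Figure D4:**
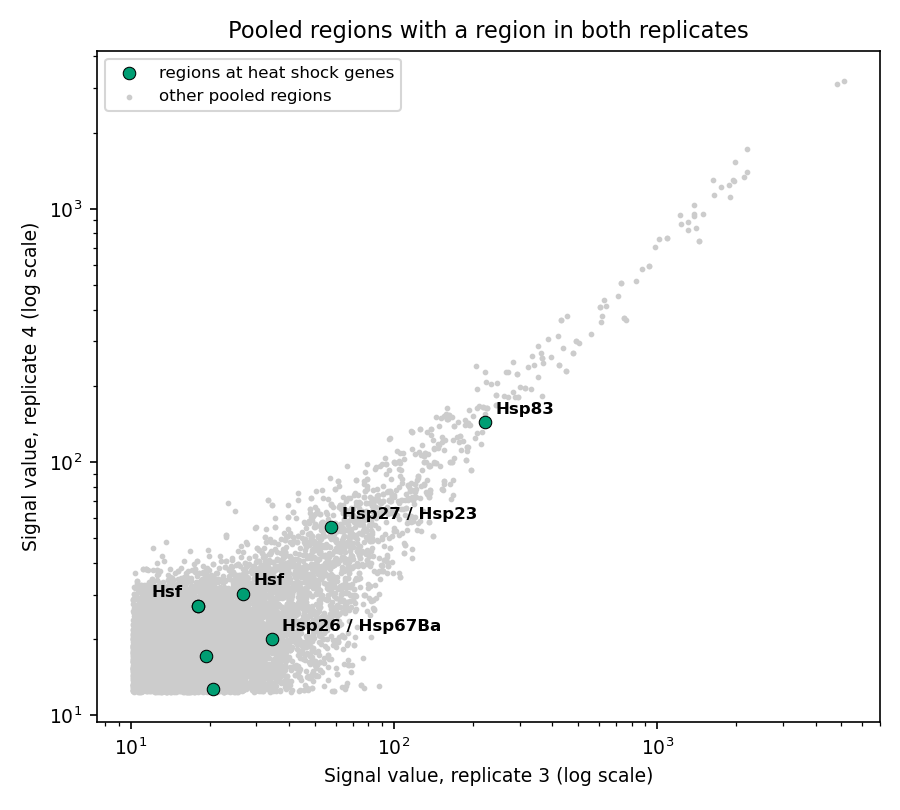
Signal value in replicate 3 (horizontal, log scale) against replicate 4 (vertical, log scale) for the 12488 pooled regions overlapped by a region of both replicates, taking the strongest overlapping region; the 8 regions at heat shock genes are green (2 of the Hsf regions coincide) and the others grey. Hsp83 (222 and 144) lies on the narrow upper band of regions strong in both, Hsp27 (57.8 and 55.3) in its lower part, and the other green points in the broad cloud of low values.

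Sequence words were searched on both strands within 50 bp of summits and in promoters, taken as 250 bp before to 50 bp after each TSS. A match describes letters and no more. The heat shock element was searched as GAANNTTC and as TTCNNGAA, which share a unit where 3 units alternate. The first was in a promoter of 7 of the 10 genes (Hsp83, Hsp26, Hsp23, Hsp22, Hsp67Bc, Hsp68 and DnaJ-1), against 12% of protein-coding genes and 9.33% of their 19253 separate promoters. The second was in those of Hsp26, Hsp23 and Hsp68, against 9.96% of protein-coding genes and 7.61% of promoters. An array of 3 exact alternating units was found at Hsp68 alone of the 10, against 0.567% of protein-coding genes and 0.421% of promoters. Arrays with an inexact unit, or outside the promoter window, were not searched for, so the other genes may hold such arrays.

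Few of the summits had these words nearby. Of the 23 pooled regions at the 10 genes, 1 held GAANNTTC within 50 bp of the summit, the Hsp26 region, and 0 held TTCNNGAA. Over all optimal peaks the shares were 2.61% for GAANNTTC and 2.46% for TTCNNGAA, and over all pooled regions 2.47% and 2.25%. The Hsp83 match, whose farthest base is 52 bp from the summit, did not lie wholly in this window. That holds for the search word alone. In the printed Hsp83 bases a further GAA lies on the summit side of the match, inside the window. Hsp68, whose promoter holds GAANNTTC 4 times, centred 50, 83, 164 and 174 bp upstream of the TSS, had no pooled region there. Hsp27, with an optimal peak, had neither word in its promoter window.

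GAGAG was in the promoters of Hsp26, Hsp23 and Hsp22, against 36.3% of protein-coding genes and 33.1% of promoters, and within 50 bp of 4 of the 23 summits, against 13% of pooled regions and 12.2% of optimal peaks. The word TATAAA was in a promoter of 8 of the 10 genes (all but Hsp67Ba and Hsf), against 51.2% of protein-coding genes and 42.2% of promoters. It was at 3 of the 23 summits, against 9.09% of pooled regions. The word was counted at any place in the promoter window. The DnaJ-1 matches are centred 23 bp downstream and 135 and 174 bp upstream of the TSS. The word TATCGATA, the core of the DNA replication-related element, was in the promoters of Hsp83 and DnaJ-1, against 10.2% of protein-coding genes and 7.98% of promoters, and at 0 of the 23 summits, against 0.543% of pooled regions and 1.31% of optimal peaks. CACGTG was in a promoter of none of the 10 genes, against 5.3% of protein-coding genes and 4.01% of promoters, and at 1 of the 23 summits, against 1.37% of pooled regions.

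The CTCF words AGATGGCGC, AGAGGGCGC, AGGTGGCGC and AGGGGGCGC were in 5.91% of optimal peaks, 0.717% of pooled regions, 0.997% of promoters and the promoters of 1.35% of protein-coding genes. None of the 23 regions and none of the 10 genes' promoters held one. The shorter AGATGGC, the first 7 letters of the first of these words, was in the Hsp27 promoter and pooled summit window and at no other of the 10 genes. It was not within 50 bp of the Hsp27 summit of either replicate. Its share was 5.3% of optimal peaks, 1.61% of pooled regions, 3.65% of promoters and 4.77% of protein-coding genes by their promoters. At Hsp83, the strongest of the 10, the summit window held none of the words searched.

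For further chaperone genes, a wider list of 50 symbols was used, of which 49 were found and 48 are protein-coding. It holds genes of Hsp70, Hsp60 and some DnaJ proteins, the CCT chaperonin, some prefoldins and some co-chaperones. The list is a selection, and chaperone genes in neither list were not looked at. An optimal summit within 500 bp of a TSS was present at 1 of the 48 (2.08%), against 4.9% of protein-coding genes. It was mrj, a DnaJ family gene, with 97.9 in the pooled list (rank 700), 47.4 in replicate 3 (rank 1067) and 47.2 in replicate 4 (rank 576). In the pooled list 24 of the 48 (50%) had a promoter region, against 42.5% of protein-coding genes. Replicate 3 gave 60.4%, against 47.4%, and replicate 4 gave 33.3%, against 34.3%. Among the 1302 highest regions, replicate 3 gave 1 of the 48 (2.08%), against 5.15%, and replicate 4 gave 3 of the 48 (6.25%), against 4.39%. These shares lie on either side of the background, and no difference is read from them.

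The 5 next genes of that list by pooled rank all had lower values than the optimal list contains. The heat-inducible noncoding RNA gene lncRNA:Hsromega had 54.1 (rank 2073), with rank 1957 in replicate 3 and 5051 in replicate 4. The DnaJ domain gene CG2790 had 53.3 (rank 2127), with rank 1552 in replicate 3 and 9071 in replicate 4. Hsc70-5, the mitochondrial Hsp70, had 49.7 (rank 2505), with rank 3100 in replicate 3 and 3757 in replicate 4. These 3 were not within the 1302 highest regions of either replicate.

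Hsc70-4, the main constitutive Hsp70, had 47.5 (rank 2817), with rank 7724 in replicate 3 and 1023 in replicate 4, and its region was nearer to the TSS of tefu. CCT3, a chaperonin subunit, had 45.2 (rank 3220), with rank 28393 in replicate 3 and 1118 in replicate 4, and its region was nearer to the TSS of CG10324. Both were within the 1302 highest regions in replicate 4 only. The 6 heat-inducible genes Hsp70Aa, Hsp70Ab, Hsp70Ba, Hsp70Bb, Hsp70Bbb and Hsp70Bc had no pooled region within 500 bp of a TSS. In the gene body with 2 kb on each side, Hsp70Aa had a pooled region, where 82.2% of protein-coding genes have one. In that window Hsp70Ab and Hsp70Bc had a replicate 3 region, and Hsp70Ab a replicate 4 region. The 6 genes are near-identical copies, to which short reads may not be assigned uniquely, so their lack of promoter regions is uncertain.

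**Figure D5:**
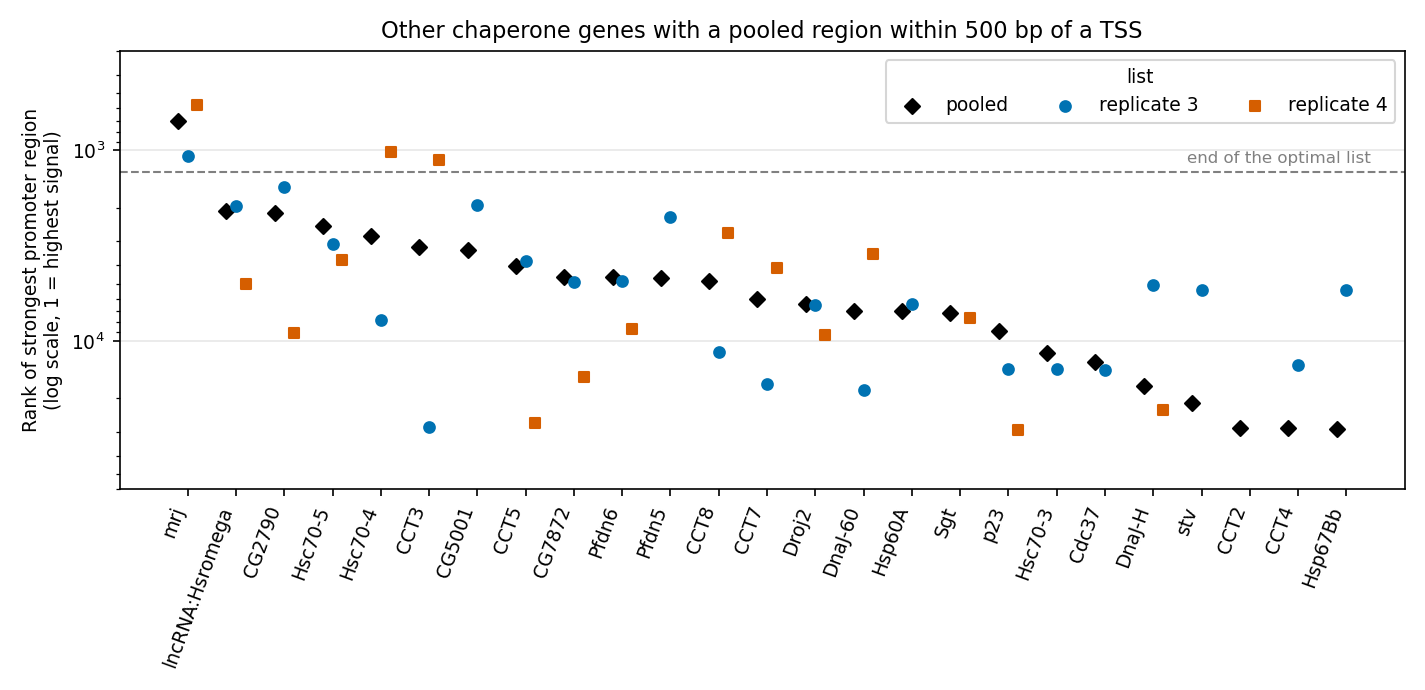
Rank of the strongest region within 500 bp of a TSS (log scale, 1 at the top) for the 25 genes of the wider chaperone list that have one in the pooled list, in the pooled list (diamonds), replicate 3 (circles) and replicate 4 (squares). Only mrj, at rank 700, lies above the end of the optimal list (dashed, rank 1302) in the pooled list, and Hsc70-4 and CCT3 do so in replicate 4 alone.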

How the data were processed

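Peaks came from anti-GFP ChIP-seq of 2 replicates. The authors deposited narrowPeak lists on dm6 and dm3; the 4 dm6 lists were used (2 replicates, pooled, optimal), and the dm3 lists were not used here for want of a dm3 annotation. Column 7, as deposited, holds a score (signal value) with no scale given, which was used to rank regions within a list. Column 9 is a deposited −log10 q value. The deposited offset in column 10 placed the summit. The authors called peaks against a control, per the labels' text files, in each replicate and in the pooled data, and the aligner or the peak caller is not given in the sources used here. Depth per sample is unknown.

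Summits were assigned with Python 3.11.15, pandas 2.3.3 and numpy 2.4.6 to every gene of Ensembl release 115 (BDGP6, dm6) with a TSS within 500 bp, or with its body and 2 kb on each side around the summit. The assignment and the word search were tested on simulated data. Coordinates count from 1. The 10 genes, the wider list and the words were chosen with earlier results of these data known. Named genes were the 10, the genes of the wider list with an optimal promoter peak and its 5 next by pooled rank. The 3 promoter peaks on each side of Hsp83 in rank, and CG14965, were also named. In the wider list, 2 symbols matched by an older name, and Hop was not matched. Regions were not tested against each other, since there was 1 group. Alternatives changed the window, the threshold, the assignment and the replicate used.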

Additional observations from a re-analysis of the deposited data

How the results depend on the processing

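The count of genes with an optimal promoter peak was 2, Hsp83 and Hsp27, under all 7 alternatives: windows of 250 and 1000 bp, the 50% of peaks with the highest signal, any overlap, the nearest TSS alone, and each replicate alone. In the gene body with no flank the count was 1 (Hsp83) instead of 3, and with a flank of 5 kb it was 4, Hsp67Ba being added. Shares over all protein-coding genes are not given for the changed windows, the overlap, the nearest TSS or the stronger peaks. These counts therefore show only which genes stay listed. For the wider chaperone list the count of 1 (mrj) became 0 with a 250 bp window and 0 among the stronger 50% of peaks, and it was 1 to 3 when a replicate was left out, the 3 without replicate 3 being mrj, Hsc70-4 and CCT3. Genes with a pooled promoter region numbered 4 to 8 when a replicate was left out, against 7 in the pooled list. The 4 came without replicate 3. The median rank of the strongest region at the 10 genes was 1727 in the pooled list and 2730 to 5760 in single replicates. This median counts shared regions more than once. Hsp23 shares its strongest region with Hsp27 and Hsp67Ba with Hsp26, and in single replicates Hsp22 shares its own with Hsp67Bc. No such median was computed over all genes. The Hsp83 rank of 84 became 80 to 102. The cause was not tested. No paired analysis was possible because all samples belong to 1 group. Read numbers are unknown, so depth cannot be set against the ranks.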
